A study of Bos taurus with 5 samples.

Results

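A gene locus can give rise to many RNAs that differ in their first exon, in the exons that are joined, or in the point where the RNA is cut and polyadenylated. The share of each RNA within its locus is therefore a readout of promoter use, splicing and 3′ end choice, and it is separate from how much RNA the locus makes in all. In blood leukocytes, a mixture of neutrophils, lymphocytes and monocytes, such shares can differ between cell types, so a bulk sample reports the mixture.

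The loci described here are those with 8 or more assembled transcripts, lying on a placed chromosome other than the mitochondrial one, and with transcript values that summed to at least 5 FPKM in each of 5 libraries. FPKM is the number of sequenced fragments scaled to the length of the transcript and to the fragments mapped in the library. The rule kept 784 of the 31898 loci of the authors' assembly, and these held 7524 of its 72812 transcripts. Of the 1130 placed loci with 8 or more transcripts, 346 were left out by level. The study sequenced poly(A) RNA of peripheral blood leukocytes from cattle (Bos taurus), with 1 library for each of 5 populations. N and H are the purebred populations. 50CSN is a 50 percent cross of an Iran native sire and a Holstein dam, 50CSH is the reciprocal 50 percent cross of a Holstein sire and an Iran native dam, and in 75C Holstein makes up 75 percent and Iran native cattle 25 percent. The labels do not give the number, age or sex of the animals behind a library, and no group has a second library. The leukocyte label was not checked against marker genes, because none of the 31460 Ensembl transcript IDs in the tables could be paired with a gene name. Loci are therefore named by chromosome, start and end from the authors' files, with starts raised by 1 as described below. No source used here names a genome build for these files.

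The members had a median of 9 transcripts, 278 had exactly 8, 109 had 12 or more, and the largest number was 22. Their median span was 59562 nt, against 33209 nt for 5901 loci with 2 to 7 transcripts that passed the same rules on level and placement and serve as a comparison below. Mean locus sums ran from 5.20 to 1003 FPKM with a median of 18.2 FPKM, and the median of the comparison loci was 20.2 FPKM. Members held 3.70% of all FPKM in N and 3.55% in H, and 2.93%, 2.75% and 3.06% in 75C, 50CSN and 50CSH. Their own summed FPKM were 27188 in N and 26052 in H, and 24741, 23466 and 24112 in 75C, 50CSN and 50CSH. Both were thus lower in each crossbred library than in either purebred one. The total, which includes unplaced and mitochondrial loci, was larger in the crossbred libraries, so the part differed more than the members' own sum. At the edge of the level rule, the 3 members with the lowest sums reached 5.03, 5.06 and 5.06 FPKM in their lowest library, and the 3 nearest loci outside reached 4.95, 4.94 and 4.94 FPKM.

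In a typical member the RNA was spread over about 4 transcripts with 1 in the lead. The median share of the leading transcript was 40.9% in N and 41.8% in H, and 42.3%, 43.7% and 43.1% in 75C, 50CSN and 50CSH. The effective number of transcripts, the exponential of the Shannon entropy of the shares, had medians from 4.07 in 50CSH to 4.26 in H, and the median number of transcripts with at least 5% of the sum was 4 in every library. The comparison loci had medians of 1.97 to 1.99 effective transcripts. A leading transcript held at least 50% of the locus in 231 members in N and in 259 in 50CSN, the lowest and highest counts over the libraries. Differences between libraries in these medians have no replicate check.

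A share can be read at 2 levels in these tables, because several assembled transcripts of a locus often carry the same Ensembl transcript ID. The ID marks the reference transcript that the assembly assigned, not a match of all exons. Among the members, 397 had a single Ensembl ID, 182 had 2, and 200 had 3 or more, up to 8. Every transcript had an ID in 735 members, 44 members held transcripts of both kinds, and 5 had no ID at all.

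Many of the transcripts were listed at 0. Between 28.2% of the 7524 transcripts in N and 29.8% in 50CSH had a value of 0, with 1076 at 0 in all 5 libraries, 2360 at 0 in some, and 4088 above 0 in all. A value of 0 can be a failed estimate in such files. In 75 members, 93 transcripts were listed at 0 in at least 1 library and held at least 25% of their locus in another. There were also 20 transcripts, in 10 members, whose 5 values equalled those of another transcript of the same locus, as where 2 transcripts of the locus at chr12:15156432-15336726 each held 25.2, 21.7, 22.5, 22.4 and 22.9% in N, H, 75C, 50CSN and 50CSH.

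To compare 2 libraries, the differences in share were summed in absolute value over the transcripts of a locus and divided by 2. The result, the share moved, is the number of percentage points that would have to pass between transcripts to turn the shares of 1 library into those of the other. A move of 25 points or more was counted as large. With 1 library per population no pair can be tested, and the moves below hold the difference between populations, between animals and between preparations of RNA, which cannot be told apart. In a bulk sample, fewer cells of a type and less RNA per cell cannot be told apart either.

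The smallest median move was 15.2 points, between H and N, and the medians of the pairs 75C against H, 50CSH against 50CSN and 75C against N were 15.6, 15.7 and 16.0 points. The 6 pairs that join a 50 percent cross to N, H or 75C had medians from 17.7 to 19.2 points. No pair of the second kind had a median below any of the first kind. In the comparison loci the same 4 pairs had medians from 6.55 to 7.22 points and the other 6 from 7.99 to 9.16 points, so this order of the pairs was shared by loci with few transcripts. The 10 pairs reuse 5 libraries and are not independent.

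**Figure D1:**
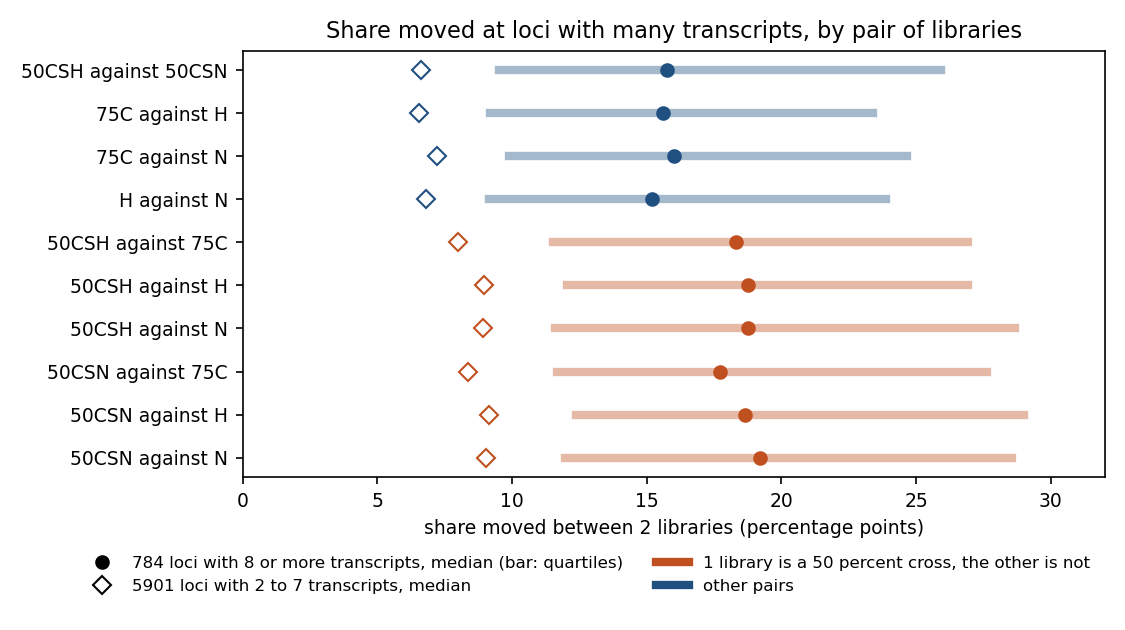
Share moved between 2 libraries, in percentage points, for each of the 10 pairs: filled circles are medians and bars the quartiles over 784 loci with 8 or more transcripts, and open diamonds are medians over 5901 loci with 2 to 7 transcripts. The 6 pairs joining a 50 percent cross to N, H or 75C (orange) have medians of 17.7 to 19.2 points, and the other 4 (blue) of 15.2 to 16.0 points.

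On average, pairs joining a 50 percent cross to N, H or 75C had the larger moves at each level of expression. Medians of single pairs were not compared by level. In members with a mean sum of 5 to 10 FPKM the medians averaged 26.3 points over the 6 pairs and 25.1 over the other 4. These averages were 20.9 and 18.7 points at 10 to 20 FPKM, 15.7 and 12.7 points at 20 to 50 FPKM, and 11.7 and 8.57 points from 50 FPKM. The gap between the kinds of pair was thus wider at high than at low sums. Locus sums also differed more in some of these pairs: 85.1% to 89.5% of members had sums within 1.5-fold in the 4 pairs joining a 50 percent cross to N or H, 94.1% and 95.7% in the pairs 50CSN and 50CSH against 75C, and 95.4% to 98.7% in the other 4. The part of the sums in the order of the pairs was not tested.

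Large moves were counted in 176 members between H and N, where 9.07% of all 6685 loci compared had one. The count was 193 for 75C against N (9.45% of all), 262 for 50CSN against N (14.1%) and 256 for 50CSH against N (13.9%). Against H it was 173 for 75C (9.32%), 249 for 50CSN (14.7%) and 244 for 50CSH (14.2%). The remaining pairs gave 230 for 50CSN against 75C (13.2%), 223 for 50CSH against 75C (12.7%) and 209 for 50CSH against 50CSN (10.7%). These are 22.1% to 33.4% of the members. A locus with more transcripts has more ways to move share, and the median largest move over the 10 pairs was 9.29 points in loci with 2 transcripts, 26.4 in those with 7, 28.6 in those with 8 and 28.6 in those with 12 or more. The size of the moves in members therefore continued that of loci with 7 transcripts.

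A large move in at least 1 pair was seen in 461 members (58.8%), against 27.5% of the comparison loci. Only 24 members had a large move in all 10 pairs, and in 29 the largest move was at most 10 points. The largest move depended on the level of the locus, with a median of 40.6 points at 5 to 10 FPKM (158 members), 32.9 at 10 to 20 (270), 23.1 at 20 to 50 (250) and 16.6 from 50 FPKM (106). Across the 784 members Spearman's rho between mean sum and largest move was -0.53, a description across loci of the same 5 libraries. Even from 50 FPKM, 22.6% of members had a large move in at least 1 pair.

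**Figure D2:**
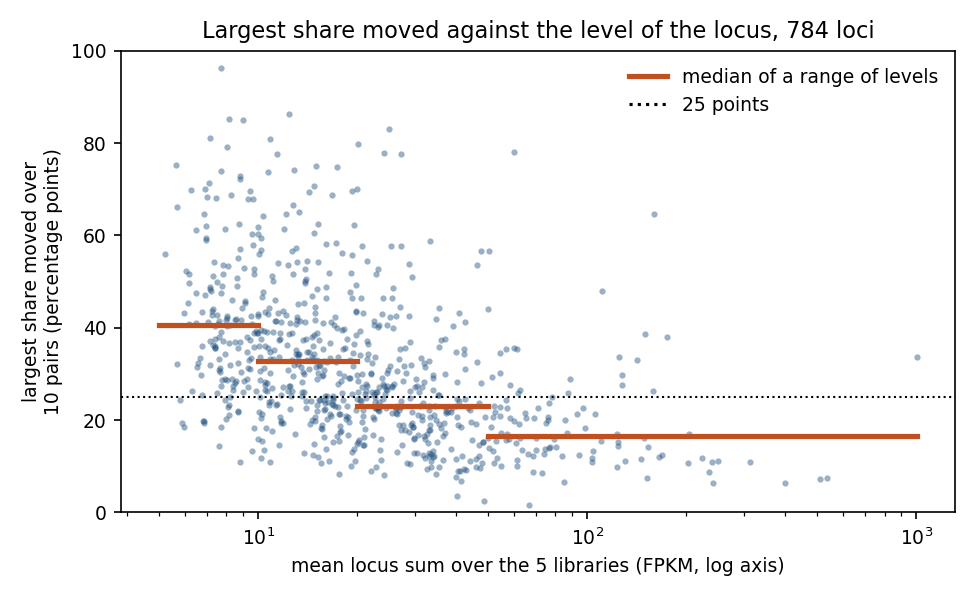
Largest share moved over the 10 pairs (percentage points) against the mean locus sum over the 5 libraries (FPKM, log axis), 1 point for each of 784 loci, with the median of each range of levels as an orange line and 25 points as a dotted line. The medians are 40.6, 32.9, 23.1 and 16.6 points from the lowest to the highest range, and single loci above 50 points are present up to sums over 100 FPKM.

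Most large moves came without a large difference in the total of the locus. Sums lay within 1.5-fold in 83.2% to 97.1% of the large moves of a pair, and in 85.1% to 98.7% of all members. In each of the 10 pairs this percentage was lower for large moves than for all members. The transcript that gained most held a median of 53.9% to 60.1% of the share moved, and the transcript that lost most held 49.9% to 55.5% of it. An exchange confined mainly to a pair of transcripts, with at least 80% of the move in each, was rare at 3 to 10 members per pair of libraries.

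Most of the moved share stayed within an Ensembl ID. In the 382 members with at least 2 IDs, the median move between transcripts was 13.8 to 18.5 points over the 10 pairs, and the median move between the summed shares of IDs was 2.94 to 4.74 points. Moves between IDs made up 29.0% to 32.5% of all points moved. Summing shares by ID can only lower a move, so a smaller move between IDs follows in part from the measure. No expected value was computed. Large moves numbered 72 to 124 between transcripts and 5 to 15 between IDs. Among large moves at these loci, the transcript that gained most and the one that lost most carried the same ID in 60.0% to 76.5%.

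The leading transcript was the same in all 5 libraries in 409 members. It took 2 identities in 273 members, 3 in 80, 4 in 20 and 5 in 2. More than 1 leader was thus seen in 47.8% of members, against 24.6% of all 6685 loci and 21.5% of the comparison loci. Most of these exchanges involved a lead under 10 points in at least 1 of the libraries compared. In a pair of libraries the leader differed in 186 to 251 members, but with a lead of at least 10 points in both libraries in only 15 (75C against H) to 48 (50CSN against H).

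Between the purebred libraries, the largest move was 77.6 points at chr25:15586425-15654009, where 8 transcripts carry 1 Ensembl ID and the sums were 26.9 FPKM in N and 29.3 in H, and 31.8, 20.4 and 27.4 in 75C, 50CSN and 50CSH. Its leading transcript in N held 66.9% there and 64.8% in 50CSN, but 0.0488% in H and 8.68% in 75C, and it was listed at 0 in 50CSH. A second transcript held 35.6% in H and 46.1% in 75C, 2.25% in 50CSN and 2.41% in 50CSH, and was listed at 0 in N. At this locus the library nearest to N was thus 50CSN, with 13.3 points moved. The library nearest to H was 75C, but with 24.7 points moved, just under a large move. 50CSH led with another transcript, at 42.8%.

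At chr6:94049793-94086472 (8 transcripts, 3 Ensembl IDs, sums of 9.08 to 12.9 FPKM) the move between H and N was 70.5 points and lay between Ensembl IDs. A transcript with 70.5% in N, 73.7% in 75C, 40.6% in 50CSN and 25.0% in 50CSH was listed at 0 in H. In H a transcript of another ID led with 58.2%, and it held 16.2% in N, 20.9% in 75C, 19.2% in 50CSN and 40.7% in 50CSH. Here H stood at one end, and both 50 percent crosses lay between H and N in these shares.

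At chr7:13659530-13769495 (11 transcripts, 4 IDs) N stood apart from the other 4 libraries, at sums of 76.2 FPKM in N and 74.7 in H, and 52.0, 49.9 and 47.1 in 75C, 50CSN and 50CSH. A transcript with 37.4%, 45.9%, 31.4% and 36.1% in H, 75C, 50CSN and 50CSH was listed at 0 in N, as was another that held 24.6% to 27.0% in those libraries. In their place N had a transcript at 37.9% and one at 23.5%, which held 0 to 7.56% and 0 to 1.25% elsewhere. The sums of N and H were close despite this exchange. The other 3 of the 6 largest moves between H and N were at chr10:21907109-21919871 (66.2 points), chr25:28921410-28945407 (64.9 points) and chr3:57087355-57166587 (62.8 points), each with sums under 12 FPKM in every library and 1 Ensembl ID.

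Between the reciprocal 50 percent crosses, the largest move was 96.4 points at chr10:68622652-68810084 (9 transcripts, sums of 6.56 to 9.28 FPKM). A transcript that held 91.8% in N, 94.1% in H, 93.8% in 75C and 96.4% in 50CSH was at 0.0166% in 50CSN. There, 3 other transcripts of the same Ensembl ID held 47.8%, 30.3% and 21.8%, the latter 2 being listed at 0 in every other library. 50CSN was thus the odd library, and the remaining 4 were within a few points of each other.

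A comparable pattern with 50CSH as the odd library was seen at chr10:8087284-8342743 (10 transcripts, 2 IDs, sums of 23.1 to 26.5 FPKM), with a move of 83.0 points between the crosses. The leading transcript held 67.2% in N, 66.2% in H, 71.9% in 75C and 71.9% in 50CSN, and 0.0513% in 50CSH. In 50CSH a transcript of the other Ensembl ID held 66.9%, against 0.00998% in N, 0.401% in H, 0.492% in 75C and 0.0670% in 50CSN. The shares of the 2 transcripts thus exchanged almost in full at a near-constant sum. The other 4 of the 6 largest moves between the crosses, from 74.0 to 75.3 points, were at chr26:21341906-21383833, chr7:94505136-94843973, chr11:15334020-15390865 and chr14:67853428-67922174, with 3 different leading transcripts each over the 5 libraries.

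Loci where a set of libraries stood apart were rare. A library was counted as apart where all its moves to the other 4 libraries were large and no move among those 4 was. This held for N in 6 members, H in 3, 75C in 7, 50CSN in 5 and 50CSH in 8. The 50 percent crosses stood apart together in 7 members, and the 3 crossbred libraries stood apart from the 2 purebred ones in 2. These were 0.255% to 1.02% of the members, and 0.136% to 0.915% of the comparison loci met the same criteria.

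The member with the highest sum among the 7 where the 50 percent crosses stood apart was chr2:93798514-93805840, chosen after its values were seen. It has 8 transcripts of 1 Ensembl ID and sums of 197 FPKM in N and 176 in H, and 191, 146 and 165 in 75C, 50CSN and 50CSH. A transcript held 42.6% in 50CSN and 41.9% in 50CSH, against 15.2% in N, 17.7% in H and 19.6% in 75C. Another held 12.7% and 20.6% in the 50 percent crosses, against 34.2%, 36.0% and 42.6% in N, H and 75C. Neither transcript had overlapping shares between the 2 sets of libraries.

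**Figure D3:**
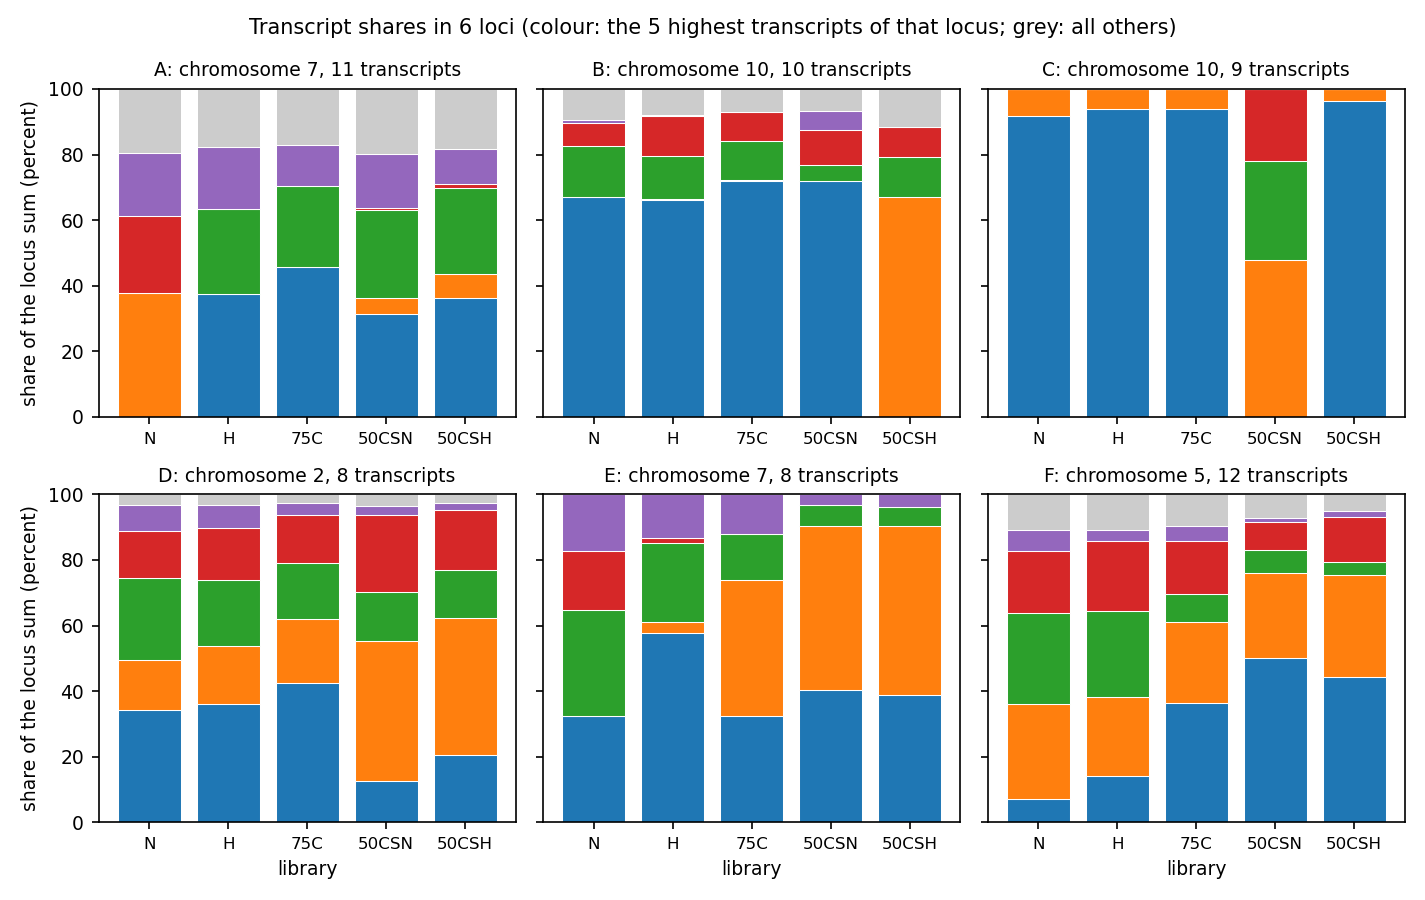
Share of the locus sum (percent) held by each transcript in the 5 libraries at 6 loci: colours are the 5 transcripts with the highest share in any library, coloured anew in each panel, and grey is the sum of all others. N differs from the rest in A, 50CSH in B, 50CSN in C and both 50 percent crosses in D, while in E and F the second and the first transcript, counted from the bottom, hold more in the 3 crossbred than in the purebred libraries (41.5% to 51.5% against 0.00997% and 3.26% in E).

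Crossbred and purebred libraries were then compared as groups of 3 and 2, the comparison in the authors' pooled table. Different populations stand in for replicates in it, and an exact permutation test of 3 against 2 cannot give a two-sided p below 0.1. Among 3477 member transcripts whose mean reached 1 FPKM, 403 (11.6%) had shares in all 3 crossbred libraries above both purebred shares, where 13.0% of 18878 such transcripts of all compared loci did. Shares all below were found in 548 (15.8%), against 15.0%. The gap between the groups was at least 10 points for 29 of the former and 27 of the latter. Gaps of that size were not counted over all 18878 transcripts, so these counts have no background. Non-overlap was thus near the background in members, in both directions.

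The widest gap was 38.2 points, at chr7:10094979-10105265 (8 transcripts, sums of 8.04 to 12.5 FPKM). A transcript with the Ensembl ID ENSBTAT00000042375 held 41.5% in 75C, 50.1% in 50CSN and 51.5% in 50CSH, against 0.00997% in N and 3.26% in H. On the scale of log2 of the transcript against the rest of its locus, with 1 FPKM added to each, the difference was 3.30 (SE 0.31), with an adjusted p of 0.181 by limma. A transcript without an Ensembl ID at the same locus held 32.4% in N and 24.0% in H, and 13.9%, 6.31% and 5.97% in 75C, 50CSN and 50CSH. The groups did not overlap for either transcript, and neither passed the test.

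In the other direction, the widest gap was 27.5 points at chr15:84399039-84412874 (9 transcripts of ENSBTAT00000017188). A transcript held 29.4% in N and 27.6% in H, 0.00507% in 75C and 0.0830% in 50CSH, and was listed at 0 in 50CSN. The log2 difference was -3.11 (SE 0.30) with an adjusted p of 0.181 by limma, and this transcript alone among the members was past 0.05 when the arcsine of the square root of the share was tested instead (adjusted p = 0.041). The crossbred libraries had different leading transcripts: 50CSH led with a transcript at 34.9% and 50CSN with one at 28.5% that was listed at 0 in 50CSH. This was 1 of the 2 members with 5 leading transcripts.

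Gaps of 26.4, 25.4, 22.2 and 21.5 points followed. At chr14:19210483-19344988 a transcript with 64.9% in N and 26.4% in H held 0.0178% in 75C, 0.00149% in 50CSN and 0.00119% in 50CSH. At chr13:15170727-15354349 a transcript held 35.6% in 75C, 40.9% in 50CSN and 46.7% in 50CSH, against 0.0587% in N and 10.3% in H. At chr5:60520381-60710672 the shares were 7.03% in N and 14.2% in H, and 36.4%, 50.1% and 44.2% in 75C, 50CSN and 50CSH. At this locus and at chr22:49216049-49329650, where a transcript with 26.3% in N and 21.5% in H held at most 0.0140% in the crossbreds, all moves between the groups were large and none within them was. The adjusted p by limma was between 0.181 and 0.499 for these 4 transcripts.

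Over all transcripts tested, limma called none of 23077 shares at an adjusted p of 0.05 (background 0% called), and none of the 3477 of members, whose smallest adjusted p was 0.181. At an unadjusted p of 0.05, 141 member transcripts (4.06%) were higher in the crossbreds and 112 (3.22%) lower. The same counts over all transcripts were 4.41% higher and 3.52% lower, so members were not above the background in either direction. The median SE of a member's difference was 0.34 on the log2 scale. A miss of the threshold does not show that the shares were alike.

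Transcripts without an Ensembl ID were few in the members, and minor in most of the loci that held both kinds. There were 115 of them, 1.53% of the members' transcripts, against 2.10% in the comparison loci and 10.7% of the whole assembly. They held 4.93% of the members' FPKM in N and 4.16% in H, and 3.93%, 4.61% and 4.25% in 75C, 50CSN and 50CSH. Much of this came from few loci, among them chr29:45474246-45502664, with 10 transcripts and no ID, where the sum was 658 FPKM in N and 412 in H, and 337, 317 and 272 in 75C, 50CSN and 50CSH. Its shares differed little, the leading transcript holding 73.3%, 74.5%, 73.0%, 69.3% and 69.5% in the same order, so the difference lay in the sum and not in the choice of transcript.

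In the 44 members with both kinds of transcript, 32 of which had 1 transcript without an ID, the median share without an ID was 11.2% in N and 12.6% in H, and 11.8%, 7.99% and 10.2% in 75C, 50CSN and 50CSH. Of the summed FPKM of these loci, transcripts without an ID held a larger part, from 36.2% in H to 42.1% in 50CSN. The range of the share per locus over the 5 libraries had a median of 5.80 points. This range was at most 5 points in 21 of the 44 loci and over 10 points in 14. At chr5:108136718-108170197, where 9 of 10 transcripts lack an ID and the sums were 462 to 626 FPKM, the share was between 95.1% and 96.6%. At chr18:58791322-59007273 it was between 41.7% and 53.9%, and at chr3:49752492-49838146 between 46.9% and 61.9%.

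The widest range was at chr14:18785504-19063836, where 2 of 8 transcripts lack an ID. They held 91.8% in N and 90.0% in H, and 82.3%, 74.8% and 64.5% in 75C, 50CSN and 50CSH. The locus sum was 66.7 FPKM in N and 56.9 in H, and 33.3, 27.6 and 18.7 in 75C, 50CSN and 50CSH, so the share and the sum had the same order over the libraries. Of the 2, the leading transcript held 81.5%, 75.8%, 68.4%, 53.4% and 38.4%, and the other held 10.3%, 14.2%, 13.9%, 21.4% and 26.1%. Of these 2 transcripts, the leading one thus had a lower share in each crossbred than in either purebred library, and the other did not.

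The next widest ranges were 26.4 points at chr7:10094979-10105265, given above, 21.9 points at chr13:80246507-80389548 and 19.8 points at chr24:369571-453293. At the chromosome 13 locus the share was 43.1% in 50CSN and 21.2% to 29.7% in the other libraries. At the chromosome 24 locus it was 34.9% in 50CSH and 15.1% to 25.2% in the others. In the 4 members with the lowest shares, at chr1:55589527-55676846, chr17:19877123-19981095, chr3:62689008-63014358 and chr7:9894906-9944109, it did not exceed 1.79% in any library.

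**Figure D4:**
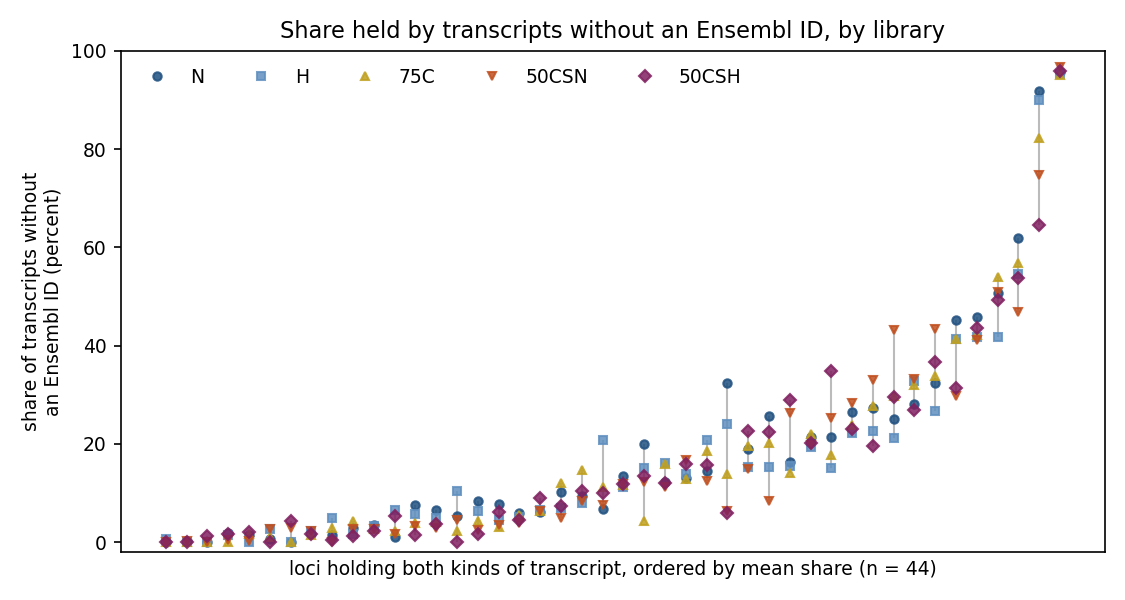
Share of the locus sum held by transcripts without an Ensembl ID (percent) at the 44 loci with both kinds of transcript, ordered by mean share, with 1 symbol per library and a grey line from the lowest to the highest. Medians lie between 7.99% (50CSN) and 12.6% (H), and the widest range runs from 64.5% to 91.8%.

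By limma, the log2 ratio of transcripts without an ID to those with one differed between crossbred and purebred libraries in none of 262 loci with both kinds (0% called), 44 of them members. At an unadjusted p of 0.05, 0 of the 44 members were higher and 4 lower in the crossbreds, against 3.82% higher and 5.73% lower of all 262 loci. Lower members numbered 0 without N, 2 without 50CSH and 3 to 5 without each of the other libraries. The smallest adjusted p was 0.467.

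Beside the shares, the sums of the members were compared on the log2(FPKM + 1) scale. limma called 4 of 13871 loci lower in the crossbreds (0.0288%) and none higher (0%). A single member was among them, chr18:57090258-57143002, with 17 transcripts and 4 Ensembl IDs. Its sum was 31.0 FPKM in N and 29.2 in H, and 8.25, 6.38 and 7.18 in 75C, 50CSN and 50CSH, with no overlap of the groups. It fell by 1.92 on the log2 scale (SE 0.12, adjusted p = 0.032 by limma), and the adjusted p was 0.058 to 0.27 when any 1 library was left out.

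Shares at this locus did not follow the groups. The transcript that led in N, H, 75C and 50CSH held 17.0%, 29.8%, 30.9% and 38.0% there and 8.92% in 50CSN, where another led with 12.8%. Of the 17 transcripts, 2 lack an Ensembl ID. The move was 42.7 points between H and N and 48.8 points between 50CSH and 50CSN.

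At an unadjusted p of 0.05, 153 members (19.5%) had lower sums in the crossbreds and 27 (3.44%) higher, against 11.9% lower and 9.86% higher of all loci tested. In the comparison loci 12.2% were lower and 11.7% higher. The rule for members used these same sums, which had to reach 5 FPKM in each library, so no member could lie below that. The comparison loci met the same rule on level, whereas a locus among all those tested needed only a mean of 1 FPKM. The effect of this difference in selection on the counts was not tested. The median difference in locus sum was -0.09 over the members and -0.01 over all loci. With median-of-ratios scaling of the libraries these medians were -0.04 and 0.03, so the median over all loci turned its sign. With a library left out they ran from -0.12 (without 75C) to -0.05 (without 50CSN) over the members and from -0.02 to 0.00 over all loci. These counts depend on single libraries. Lower sums were found in 62 members without N, 93 without H, 211 without 75C, 95 without 50CSN and 84 without 50CSH, and higher sums in 16, 7, 29, 20 and 14 in that order. The difference also tended to be lower at loci with more transcripts, though not in steady steps. Its median was 0.06 at 2 transcripts, 0.03 at 3, -0.01 at 4, -0.02 at 5, -0.01 at 6 and -0.09 at 7. Among members it was -0.06 at 8, -0.10 at 9, -0.07 at 10, -0.15 at 11 and -0.12 at 12 or more. After median-of-ratios scaling the medians at 4, 5 and 6 transcripts turned to 0.04, 0.02 and 0.03. Those at 7, 8, 9, 10, 11 and 12 or more were then -0.05, -0.02, -0.05, -0.02, -0.10 and -0.07.

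**Figure D5:**
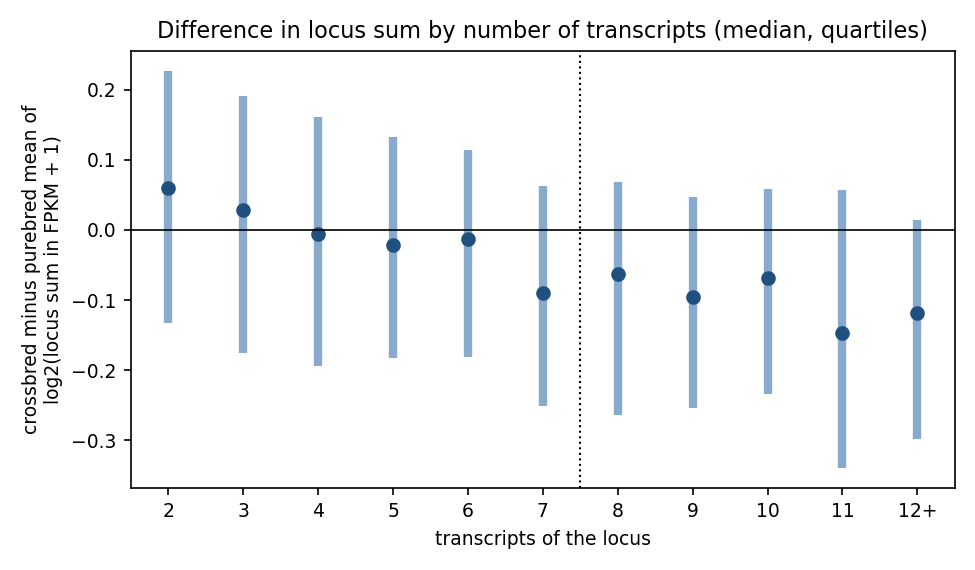
Difference between the crossbred and purebred means of log2(locus sum in FPKM + 1) against the number of transcripts of the locus, as medians (circles) and quartiles (bars), with loci of 8 or more transcripts to the right of the dotted line. The median is 0.06 at 2 transcripts and -0.12 at 12 or more (0.10 and -0.07 after median-of-ratios scaling, which turns the medians at 4 to 6 transcripts above 0), and the quartiles of each class span 0 on both sides.

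The authors' deposited table for the pooled comparison called 11 of 4651 tested member transcripts lower in the crossbreds and 0 higher, where 0.628% and 0.307% of all tested transcripts were called. In at least 1 of the 10 pairs, the authors' deposited table called 3 of 5281 member transcripts, with 0.447% called over all transcripts tested. The shares show whether the called transcript was lower within its locus, and the sums whether the locus was lower. At chr10:35817450-35842350 the called transcript held 67.3%, 70.8%, 73.4%, 72.8% and 69.2% in N, H, 75C, 50CSN and 50CSH, while the locus sum went from 21.6 and 23.8 FPKM in the purebreds to 14.2, 10.5 and 8.92 FPKM.

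At chr16:34583201-34664426 the called transcript held 99.9% in N and 99.8% in H but 43.1% in 75C, 68.5% in 50CSN and 82.4% in 50CSH. The locus sums were 14.0, 17.7, 6.62, 7.20 and 5.39 FPKM in the same order. In 75C another transcript with the same Ensembl ID held 56.9%, and in the 50 percent crosses yet another, listed at 0 in N, H and 75C, held 31.4% and 17.5%. Both the sum and the share of the called transcript were thus lower in all 3 crossbred libraries. The sums of the members that hold the 8 leading called transcripts, ranked by the authors' q-value, were 0.71 to 1.32 lower on the log2 scale by limma, with adjusted p from 0.110 to 0.171.

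Stable loci marked the other end of the range. The smallest largest move was 1.59 points, at chr15:51740626-51809591, where the leading transcript held 91.2% to 92.2% in all 5 libraries and the sums ran from 53.7 to 86.8 FPKM. At chr12:74111521-74164777 and chr3:29058264-29209856 a dominant transcript held 97.3% to 99.5% and 92.7% to 96.3%. Stability was not limited to loci with a dominant transcript: at chr1:55589527-55676846, with sums of 222 to 256 FPKM, transcripts of 2 Ensembl IDs held 49.8% to 51.5% and 25.6% to 28.2%, and the largest move was 6.44 points.

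Among the members with the most transcripts, variability differed. The largest moves at 22 and 21 transcripts were below the median of 28.3 points over all members. Those at 20 and 19 transcripts were above it. With 12 or more transcripts, 28.4% of members had a large move between H and N, against 22.4% of all members. Between 50CSH and 50CSN these values were 32.1% and 26.7%, but for at least 1 pair they were 57.8% and 58.8%. At chr3:113619727-113975597, with 22 transcripts of 1 Ensembl ID and sums of 64.9 to 89.8 FPKM, the leading transcript held 30.6% to 39.0% and the largest move was 15.8 points. At chr11:15598852-15993358, with 21 transcripts, the leader held 47.7% to 56.8% and the largest move was 15.0 points. The loci with 20 transcripts (chr17:37184717-37377557) and 19 transcripts (chr13:59327765-59338211) had lower sums, 17.5 to 21.9 and 14.8 to 23.7 FPKM, and largest moves of 34.5 and 55.8 points.

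The locus with the highest mean sum, chr23:26189229-26429858, has 11 transcripts of 7 Ensembl IDs and sums of 1165 and 1117 FPKM in N and H, and of 717, 1115 and 900.1 FPKM in 75C, 50CSN and 50CSH. A transcript led in all 5 libraries with 30.6% in N and 39.1% in H, and 28.0%, 33.3% and 48.1% in 75C, 50CSN and 50CSH. A transcript of another ID held 30.5%, 27.7%, 27.8%, 21.3% and 15.9% in the same order. The largest move was 33.7 points, above the median of 16.6 for members from 50 FPKM.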

How the data were processed

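Leukocyte poly(A) RNA of 5 cattle populations, 1 library each, was sequenced from both ends per the labels' protocols, which name no step that marks strand. The submitters' processing notes name the aligner TopHat2 2.0.9 and the assembler Cufflinks 2.2.1.0. Build, annotation and settings: not given in the sources used here. FPKM per assembled transcript were deposited by the authors, with the columns of Cuffdiff output per the file headers. FPKM divides reads between overlapping transcripts by a model, so errors in the shares of a locus are linked, and a 0 can be a failed estimate. The deposited tables also hold the authors' log2 fold changes, test statistics (a score, not used here), p-values and q-values. They give no fragment counts, so depth is unknown and no counting interval is given. Each library enters 4 comparisons, and no transcript's value differed between them.

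Transcripts were grouped by the authors' locus identifier and divided by the locus sum. Starts were raised by 1, since the end minus the deposited start was a multiple of 3 in 1597 unexpressed annotated loci with 1 transcript, under 1500 nt, against 976 and 1161 for remainders 1 and 2. Pairs of libraries were described without a test. For 3 crossbred against 2 purebred libraries, limma 3.58.1 (R 4.3.3) was fitted with a trend of variance on mean, and p-values were adjusted by the Benjamini-Hochberg method over all features tested, on log2 ratios or sums with 1 FPKM added, for features with a mean of at least 1 FPKM. These p-values rest on the spread between single libraries of different populations, where population, animal and RNA preparation cannot be told apart. A log2 difference understates the change of low features. The fits were also run on simulated data with independent normal noise for each feature. Linked errors within a locus were not simulated, so that run does not check the p-values of the real shares. Shares were computed with pandas 2.3.3 in Python 3.11.15.

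Loci were named by fixed rules: the 6 largest moves of H against N and of 50CSH against 50CSN, the 6 widest gaps between crossbred and purebred shares, the 4 members with the most transcripts, the highest sum and the smallest largest move, the 4 with the highest, lowest and most variable share without an Ensembl ID, features past the adjusted threshold, and up to 8 transcripts of the authors' pooled calls. The members and lists were chosen with earlier results of these data known. Alternatives covered the added constant, filters, the model, the scale of shares, the rule for members, and leaving out each library. No sequences are printed, since no genome was used here.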

Additional observations from a re-analysis of the deposited data

How the results depend on the processing

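Counts of members with a large move depended on the filters. For H against N, 22.4% of members had one, which became 13.9% without transcripts listed at 0 in any library, 12.5% without transcripts under 1 FPKM on average, 6.08% for sums of at least 20 FPKM in each library (296 members), 28.4% for 12 or more transcripts (109 members) and 51.0% with a large move counted from 15 points. For 50CSH against 50CSN the 26.7% became 17.2%, 16.5%, 8.11%, 32.1% and 52.4% in that order. For at least 1 pair, 58.8% became 48.1%, 44.5%, 31.8% and 86.1% under the same settings other than 12 or more transcripts. With a mean sum of at least 50 FPKM (106 members, a setting chosen after seeing the data) the 3 values were 5.66%, 2.83% and 22.6%. More than 1 leading transcript was seen in 47.8% of members, 33.4% at sums of at least 20 FPKM, 25.5% at a mean of at least 50 FPKM, 53.2% with 12 or more transcripts and 15.8% where a lead of 10 points in both libraries was asked for. The mean share without an Ensembl ID was 4.38%, 5.26% at sums of at least 20 FPKM, 0.190% with 12 or more transcripts and 13.1% as the median over members that hold such a transcript. The median leading share of 42.3% and effective number of 4.15 became 47.8% and 3.27 without transcripts under 1 FPKM, and 34.5% and 5.36 with 12 or more transcripts. These filters leave fewer transcripts or loci; the cause of each move was not tested further.

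By limma, the count of transcript shares past the threshold over all transcripts was 0, and 1 without a filter on low values, 1 with a mean of at least 5 FPKM, 2 without a trend, 1 at an adjusted p of 0.1 and 13 on the arcsine scale. Leaving out a library gave 0 to 10, the 10 without 75C. Among members it was 0 except for 1 on the arcsine scale. For the share without an Ensembl ID the count over all loci was 0, and 0 to 1 with a library left out, the 1 without 75C. For locus sums the count of 4 became 2 with a mean of at least 5 FPKM, 8 with robust fitting, 12 at an adjusted p of 0.1, and 3 to 21 with a library left out, the 21 without H. The count of 1 member became 0 without a filter (adjusted p = 0.068), 0 without a trend (adjusted p = 0.070) and 0 to 0 with any library left out. Members with lower sums at an unadjusted p of 0.05 numbered 62 to 211 with a library left out and those with higher sums 7 to 29, against 153 and 27, and median-of-ratios scaling gave 139 and 36. Of the single named features, no difference changed its direction. No paired analysis was possible because each population has 1 library and the labels pair none. The depth behind each FPKM is unknown, so the level of the locus is the available guide to precision.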
